A study of Arabidopsis thaliana with 36 samples.

Results

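The tau (GSTU) and phi (GSTF) classes of glutathione S-transferases of *Arabidopsis* were taken as 36 genes by their gene identifiers, 28 of the tau class and 8 genes of the phi class, out of 33557 genes in the tables. The remaining phi genes, GSTF4, GSTF5, GSTF12, GSTF13 and GSTF14, are not among the 36 and are counted with the other classes further below. Their transcript levels were read in leaves of 2 reciprocal hybrids and 2 parents: Fsc, with Sei-0 as the maternal line, Fcs, with Col-0 as the maternal line, and the natural accessions Sei-0 and Col-0. All 4 genotypes were infiltrated as 4-week-old plants with 100000 c.f.u. per ml of the virulent bacterium *Pst* DC3000 and sampled at 1, 2 and 3 days post infiltration (dpi), so every group carries the infection and no uninfected group is in these tables. Each of the 12 groups had 3 mRNA-seq libraries, made from around 30 leaves, and the deposited value of a group is 1 FPKM for its 3 libraries together, a fragment count scaled to transcript length and to the mapped fragments of the library. These values carry no spread between libraries, so no difference below was tested, and each is given as a size. A gene is called higher or lower when the difference reached 1.5-fold on the scale of FPKM + 1, and beside the count of members stands the share of all 19280 genes that the same rule called.

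Glutathione S-transferases join the tripeptide glutathione to reactive molecules, which marks them for transport into the vacuole by ABC transporters of the ABCC family. The tau and phi classes are the large plant classes. They are known for detoxification of herbicides and of lipid peroxides, for binding of small ligands such as camalexin and flavonoids, and for steps in the synthesis of sulphur-containing defence compounds. Many of their genes respond to salicylic acid (SA), jasmonate and oxidative stress, in part through transcription factors of the TGA group, which bind TGACG, and of the WRKY group, which bind boxes that hold TTGAC.

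An FPKM of at least 1 in at least 1 of the 12 groups was reached by 33 members, 25 tau and all 8 phi genes. The other 3, GSTU14, GSTU21 and GSTU22, had at most 0.212 FPKM in any group, while the lowest peak among the genes that passed was 1.71 FPKM, for GSTU23. Every count below is over the 33 genes that passed. The sums of FPKM over all genes lay between 935587 and 1192353 per group, and the sequencing depth of single libraries cannot be read from the tables. The leaf label was checked with 6 leaf markers, which summed to between 7075 and 28062 FPKM, whereas 7 markers of seed, flower and root stayed below 1 FPKM, with sums of at most 0.459. The state of the leaves differed between genotypes. Of the 6 leaf markers, CA1, LHCB1.1 and RCA were below both parents in both hybrids at 1 dpi by the rule used for the members, LHCB1.1 alone at 2 dpi and none at 3 dpi. RCA, the activase of Rubisco, had 1223 FPKM in Fsc and 1093 in Fcs, against 2595 in Sei-0 and 4242 in Col-0 at 1 dpi. The morning clock gene CCA1 had 6.73 FPKM in Fsc, 15.6 in Fcs, 54.3 in Sei-0 and 115 in Col-0 at 1 dpi, and the evening clock gene LUX had 23 FPKM in Fsc, 7.76 in Fcs, 2.26 in Sei-0 and 1.2 in Col-0. Both clock genes had the same order of genotypes at 2 and 3 dpi. PR1, the marker of SA signalling, had 3437 FPKM in Fsc, 3725 in Fcs, 694 in Sei-0 and 141 in Col-0 at 1 dpi. At 3 dpi PR1 had 1742 FPKM in Fsc, 1542 in Fcs, 693 in Sei-0 and 2409 in Col-0. At 3 dpi the senescence genes SAG12 and SAG13 and the SA synthesis gene ICS1 were below both parents in both hybrids. SAG13 then had 137 FPKM in Fsc and 469 in Fcs, against 1574 in Sei-0 and 1236 in Col-0. The part of these states in the differences below was not tested. In bulk leaves, fewer cells of a type and less RNA per cell cannot be told apart.

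The coding starts of 2 near-identical phi pairs are shown because the members of a pair differ at few coding bases. Transcript parts outside the coding sequence were not compared. GSTF6 and GSTF7, neighbours on chromosome 1, shared 94.7% of the aligned coding bases, with 33 differences in 627 bases and a longest identical stretch of 116 bases. GSTF2 on chromosome 4 and GSTF3 on chromosome 2 shared 94.5%, with 35 differences in 639 bases and a longest identical stretch of 74 bases. Coding bases 1 to 120 from RefSeq (TAIR10.1) follow, 5′ to 3′, with the bases that differ within a pair in capitals.
GSTF2: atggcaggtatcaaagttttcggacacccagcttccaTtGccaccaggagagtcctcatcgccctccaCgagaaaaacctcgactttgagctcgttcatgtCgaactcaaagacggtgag
GSTF3: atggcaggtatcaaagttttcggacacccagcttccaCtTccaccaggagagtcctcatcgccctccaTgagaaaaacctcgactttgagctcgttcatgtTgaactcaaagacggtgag
GSTF6: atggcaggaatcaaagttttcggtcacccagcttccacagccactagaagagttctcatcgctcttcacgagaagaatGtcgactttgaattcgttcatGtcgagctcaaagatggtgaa
GSTF7: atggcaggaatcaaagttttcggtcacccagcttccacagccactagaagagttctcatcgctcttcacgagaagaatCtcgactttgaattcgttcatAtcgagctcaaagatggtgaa
How the reads of such pairs were divided is not given in the sources used here, so the level of each gene of a pair is uncertain. Among the tau genes, coding identity ranged between 50.6% and 87.7% over all pairs, with a median of 57.8% and with the highest value for GSTU13 and GSTU14.

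Promoter windows are shown for 6 members that the comparisons below return to, as the 250 bases before the RefSeq gene start (TAIR10.1). GSTU10 exceeded both parents at 1 dpi in either hybrid, GSTU17 was below both on every day, and GSTU5 was below both at 1 and 3 dpi. GSTF10 was the phi gene above both at 3 dpi. GSTU1 and GSTU7 hold the paired TGACG motif described next. The windows lie at chr1:28024861-28025110 on the minus strand for GSTU10, chr1:3398359-3398608 on the minus strand for GSTU17, chr2:12625791-12626040 on the minus strand for GSTU5, chr2:13141040-13141289 on the plus strand for GSTF10, chr2:12632539-12632788 on the minus strand for GSTU1 and chr2:12618900-12619149 on the minus strand for GSTU7. They are written 5′ to 3′ along the gene, and capitals mark TGACG and TTGAC on either strand, so that CGTCA and GTCAA are the same letters read on the other strand.
GSTU10: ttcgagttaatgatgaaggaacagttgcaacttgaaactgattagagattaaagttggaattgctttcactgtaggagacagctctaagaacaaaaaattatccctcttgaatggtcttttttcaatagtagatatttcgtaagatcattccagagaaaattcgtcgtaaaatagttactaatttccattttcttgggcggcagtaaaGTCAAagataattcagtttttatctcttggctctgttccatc
GSTU17: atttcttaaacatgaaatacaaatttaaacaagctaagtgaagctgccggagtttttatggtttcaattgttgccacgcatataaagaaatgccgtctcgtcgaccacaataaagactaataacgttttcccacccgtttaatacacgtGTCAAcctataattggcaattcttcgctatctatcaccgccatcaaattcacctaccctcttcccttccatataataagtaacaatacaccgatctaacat
GSTU5: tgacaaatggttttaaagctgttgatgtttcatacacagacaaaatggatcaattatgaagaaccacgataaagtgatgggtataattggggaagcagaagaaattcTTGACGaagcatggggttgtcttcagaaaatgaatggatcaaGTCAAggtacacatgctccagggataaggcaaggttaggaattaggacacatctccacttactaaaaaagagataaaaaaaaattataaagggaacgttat
GSTF10: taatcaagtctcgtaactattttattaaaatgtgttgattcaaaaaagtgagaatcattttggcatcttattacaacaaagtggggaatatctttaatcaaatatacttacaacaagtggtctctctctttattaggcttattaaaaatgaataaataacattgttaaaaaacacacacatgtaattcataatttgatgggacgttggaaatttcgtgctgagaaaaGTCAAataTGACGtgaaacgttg
GSTU1: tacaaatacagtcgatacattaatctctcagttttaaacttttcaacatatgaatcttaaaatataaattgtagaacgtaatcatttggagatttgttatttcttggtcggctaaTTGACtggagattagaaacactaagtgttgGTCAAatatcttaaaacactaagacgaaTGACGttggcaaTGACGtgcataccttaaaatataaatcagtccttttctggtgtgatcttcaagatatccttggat
GSTU7: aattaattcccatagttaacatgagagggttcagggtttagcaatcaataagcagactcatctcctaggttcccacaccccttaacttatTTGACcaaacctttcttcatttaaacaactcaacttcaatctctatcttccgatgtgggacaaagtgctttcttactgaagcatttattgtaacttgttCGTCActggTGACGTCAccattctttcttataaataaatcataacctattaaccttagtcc
On either strand, TGACG was found in 14 of the 36 windows of members (38.9%), against 18.2% of all 32809 windows of the same length. TTGAC was found in 21 (58.3%), against 44.5% of all windows. The 2 motifs overlap where the letters read TTGACG, as in GSTU5. A pair of TGACG boxes in the form TGACGNNNNNNNTGACG, the spacing of the as-1 element first described in a viral promoter, was found in 2 windows, those of GSTU1 and GSTU7, and in 0.0549% of all windows. The evening element AAATATCT of clock-controlled genes was found in GSTU1 and GSTU10 (5.56%), against 4.52% of all windows. A match in these letters is a description of the window and no measure of binding.

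The family is arranged in tandem. With gaps of at most 10000 bases, 27 members fell in 9 arrays on chromosomes 1 and 2, the largest being GSTU7 to GSTU1 at chr2:12616564-12632473 with 7 genes, followed by GSTU23 to GSTU19 at chr1:29467437-29487906 with 5 genes. Levels ranged widely within an array. In the array of 7 at 1 dpi, Fcs had 1.24 FPKM of GSTU2 and 464 FPKM of GSTU4, and in the array of 5 it had 0.482 FPKM of GSTU23 and 2925 FPKM of GSTU19. All 28 tau genes have 2 exons in RefSeq, and the phi genes have between 2 and 4. The loci of GSTU7 and GSTF8 in the tables each overlap 1 other annotated gene, AT2G29410 and AT2G47720, and reads of the overlapping genes cannot be told apart.

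In sum, the family was most abundant in Fcs at 1 dpi. In the study's supplement, 1 library of this group has the fewest mapped bases of all. The lowest correlation between its replicates is below that of most groups. At 1 dpi the FPKM of the family added up to 10241 in Fsc, 15564 in Fcs, 10806 in Sei-0 and 4766 in Col-0. This is 1.09% of all FPKM in Fsc, 1.46% in Fcs, 1.00% in Sei-0 and 0.400% in Col-0. Col-0 thus had the lowest sum and the lowest share, and the spread between the 4 genotypes was widest on this day. At 2 dpi the sums were 9069 in Fsc, 9971 in Fcs, 10740 in Sei-0 and 7915 in Col-0. Those of 3 dpi were 7198 in Fsc, 6196 in Fcs, 7315 in Sei-0 and 5836 in Col-0. Each day has a table with its own normalization, and a level of 1 day cannot be set against that of another. A few genes made up most of every sum, since the 5 most abundant members held between 63.8% and 84.5% of it. The 8 phi members held between 52.3% (Sei-0 at 3 dpi) and 77.4% (Fsc at 3 dpi).

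**Figure D1:**
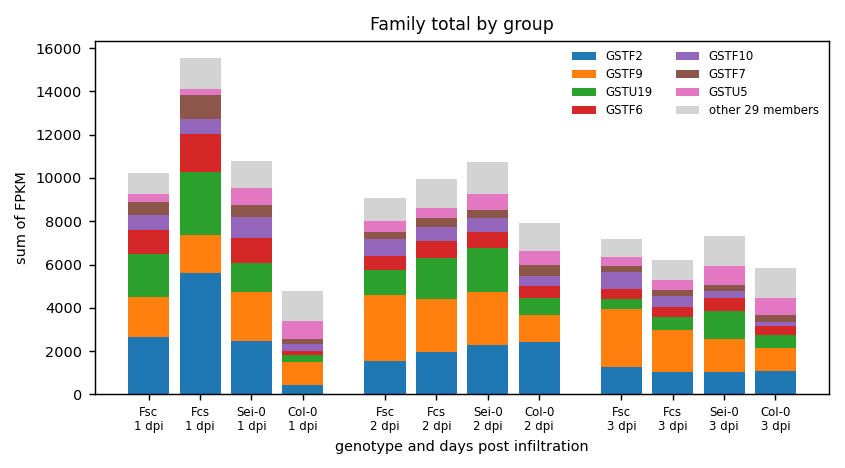
Stacked bars give the sum of FPKM of the 36 genes in each genotype and day, with the 7 most abundant members coloured and the other 29 in grey. At 1 dpi the Fcs bar reaches 15564 and the Col-0 bar 4766, and GSTF2 is the largest piece of the Fcs bar.

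At 1 dpi, GSTU8 (AT3G09270) and GSTU10 (AT1G74590) exceeded each parent in Fsc and in Fcs. These are 2 of 33 members, beside 3.76% of all genes. The parent libraries are shared by the comparisons of Fsc and Fcs, whose calls are therefore not independent. GSTU10 stands alone at chr1:28023627-28024726 and had 82.9 FPKM in Fsc and 103 in Fcs, against 32.5 in Sei-0 and 9.26 in Col-0. The smaller of the 2 hybrids thus exceeded the higher parent by 1.33 in log2 of FPKM + 1. GSTU8, on chromosome 3, had 13.6 FPKM in Fsc and 19.3 in Fcs, against 2.22 in Sei-0 and 8.49 in Col-0, a margin of 0.62. The parents stood in opposite order for these genes, with Sei-0 the higher parent for GSTU10 and Col-0 for GSTU8. At a threshold of 2-fold, GSTU10 alone was above both parents (1.64% of all genes).

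Fcs alone had more members above both parents at 1 dpi. By the same rule 10 members were above both parents in Fcs (7.6% of all genes) and 2 in Fsc (5.68%). The 10 include GSTF2, GSTU19 and GSTF6, which were among the 5 most abundant members of Fcs on that day, but not the likewise abundant GSTF9. GSTF2 (AT4G02520, chr4:1110452-1111660), a phi enzyme known to bind camalexin, had 2627 FPKM in Fsc and 5616 in Fcs, against 2458 in Sei-0 and 450 in Col-0. Fsc thus stood near Sei-0, with a log2 ratio of 0.10, and Fcs above it by 1.19. GSTU19 (AT1G78380, chr1:29486413-29487906), a tau enzyme with high activity on model substrates, had 1995 FPKM in Fsc and 2925 in Fcs, against 1330 in Sei-0 and 301 in Col-0. In Fsc its log2 ratio to Sei-0 was 0.58, just under the threshold of 1.5-fold, or 0.585 in log2. GSTF6 (AT1G02930), which joins glutathione to an intermediate in camalexin synthesis, had 1109 FPKM in Fsc and 1741 in Fcs, against 1149 in Sei-0 and 207 in Col-0. In Fcs the log2 ratio of GSTF6 to Sei-0 was 0.60, just over the threshold. GSTF7 (AT1G02920), its close copy, had 585 FPKM in Fsc and 1123 in Fcs, against 540 in Sei-0 and 220 in Col-0. For all of GSTF2, GSTF6, GSTF7 and GSTU19, Col-0 was the lowest group and Fcs the highest.

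Fcs was also the highest group for members at lower levels. GSTU12 (AT1G69920), known as a nuclear member of the family, had 23.7 FPKM in Fsc and 62.1 in Fcs, against 33.2 in Sei-0 and 0.573 in Col-0. GSTU3 (AT2G29470) had 15.9 FPKM in Fsc and 81.9 in Fcs, against 12.8 in Sei-0 and 14.2 in Col-0, so that it stood apart in Fcs only. GSTU11 (AT1G69930), the tandem neighbour of GSTU12, had 151 FPKM in Fsc and 266 in Fcs, against 152 in Sei-0 and 11.6 in Col-0; it is named here after its values were seen, since it falls outside the naming rule. GSTF3 (AT2G02930), the near-identical copy of GSTF2, had 0.585 FPKM in Fsc and 3.62 in Fcs, against 0.961 in Sei-0 and 0.330 in Col-0. The part of reads from the far more abundant GSTF2 in these low levels of GSTF3 was not tested. Over the whole family, Fcs had the highest level of the 4 genotypes for 14 of 33 members at 1 dpi (26.5% of all genes) and Fsc for none (16.4%). Col-0 had the lowest level for 17 members (36% of all genes).

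**Figure D2:**
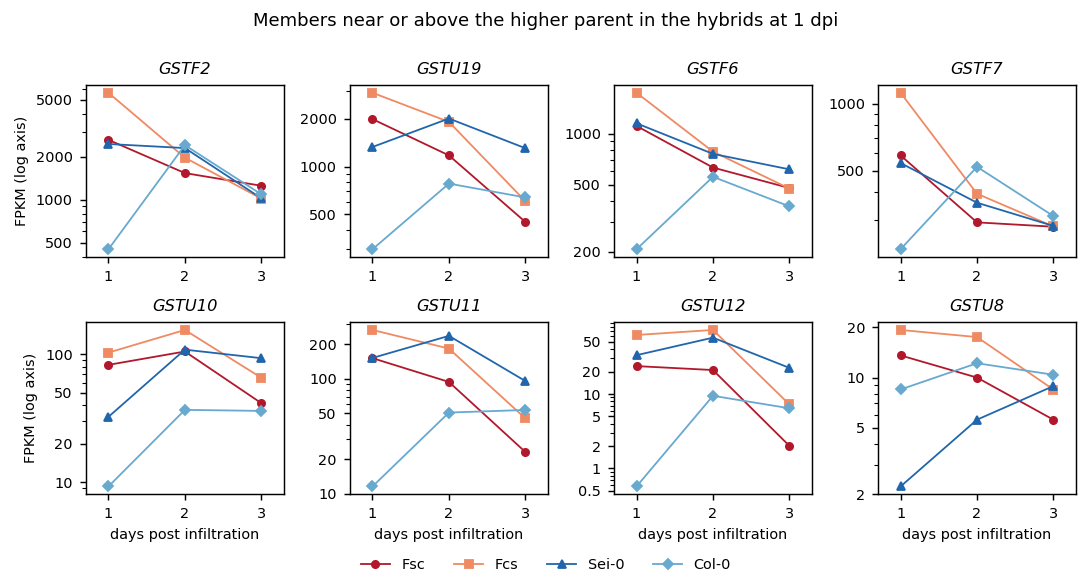
FPKM on log axes against days post infiltration for 8 members, with 1 pooled value per genotype and day as a point; lines join days whose tables were normalized separately. The 8 were chosen among the members with Fcs highest at 1 dpi, so Fcs is the highest point there in every panel by choice. At 3 dpi it is the highest in none, and over the family for 1 of 33 members (9.01% of all genes).

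At 1 dpi, 4 members were called below each parent in Fsc and in Fcs: GSTU5, GSTU17, GSTU18 and GSTU23 (5.33% of all genes). GSTU17 (AT1G10370, chr1:3397081-3398358), a tau gene known from light signalling and drought, had 40.9 FPKM in Fsc and 48.2 in Fcs, against 110 in Sei-0 and 333 in Col-0. GSTU18 (AT1G10360), its tandem neighbour, had 17.9 FPKM in Fsc and 15.4 in Fcs, against 38.6 in Sei-0 and 67.2 in Col-0. GSTU5 (AT2G29450), the most abundant tau gene of Col-0 on that day, had 381 FPKM in Fsc and 289 in Fcs, against 809 in Sei-0 and 826 in Col-0. For GSTU5 the parents were thus alike in level while both hybrids stood below them, with a log2 ratio of FPKM + 1 of -1.09 between the nearest hybrid and parent. GSTU23 (AT1G78320) had 0.427 FPKM in Fsc and 0.482 in Fcs, against 1.71 in Sei-0 and 1.66 in Col-0, and this low level leaves its call at the edge of the filter. It reached 1 FPKM only in the parents at 1 dpi. GSTU23 thus passed the filter only through the groups below which it was called, and its call is no independent result.

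Taken singly at 1 dpi, Fcs had 7 members below both parents (8.95% of all genes), against 5 in Fsc (6.84%). GSTU6, GSTU20 and GSTF11 were so called in Fcs only, and GSTU16 in Fsc only. GSTU20 (AT1G78370), which takes part in aliphatic glucosinolate synthesis and binds the jasmonate-conjugating enzyme JAR1, had 96.5 FPKM in Fsc and 33.4 in Fcs, against 123 in Sei-0 and 375 in Col-0. GSTF11 (AT3G03190), the phi gene placed in the same glucosinolate pathway, had 4.83 FPKM in Fsc and 2.21 in Fcs, against 6.62 in Sei-0 and 26.5 in Col-0; it too falls outside the naming rule and was chosen after its values were seen. For both genes the order of levels was Col-0, Sei-0, Fsc and Fcs from high to low. At 2 and 3 dpi neither gene was called below both parents in either hybrid. GSTF11 had 8.49 FPKM in Fsc and 5.43 in Fcs, against 8.31 in Sei-0 and 12.4 in Col-0 at 2 dpi, and Fcs remained the lowest group. At 3 dpi GSTF11 had 12.4 FPKM in Fsc and 11.1 in Fcs, against 14.1 in Sei-0 and 15.5 in Col-0, with both hybrids under both parents by less than 1.5-fold. At 2 dpi GSTU20 had 250 FPKM in Fsc and 153 in Fcs, against 141 in Sei-0 and 202 in Col-0. At 3 dpi it had 365 FPKM in Fsc and 294 in Fcs, against 251 in Sei-0 and 335 in Col-0.

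At 2 dpi the members called beyond both parents in both hybrids were few, at shares near those of all genes. None was called above the parents in Fsc and Fcs alike (1.75% of all genes), and GSTU17 alone was called below (2.15%). It had 9.64 FPKM in Fsc and 16.6 in Fcs, against 32.3 in Sei-0 and 94.5 in Col-0. In Fcs, GSTU3 was the 1 member above both parents (3.57% of all genes), with 57.5 FPKM in Fsc and 185 in Fcs, against 76.5 in Sei-0 and 45.2 in Col-0. In Fsc no member was above both parents (5.27% of all genes) and 4 were below (4.63%), namely GSTU1, GSTU4, GSTU16 and GSTU17. In Fcs, GSTU17 was the 1 member below (2.97%). GSTU10 had 105 FPKM in Fsc and 155 in Fcs, against 109 in Sei-0 and 36.8 in Col-0, so that both hybrids now stood within 1.5-fold of Sei-0. GSTF2 had 1537 FPKM in Fsc and 1971 in Fcs, against 2302 in Sei-0 and 2412 in Col-0, where Col-0 was the highest group and no longer the lowest.

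At 3 dpi, 7 tau genes were called below each parent in Fsc and in Fcs (5.82% of all genes): GSTU3, GSTU4, GSTU5, GSTU6, GSTU16, GSTU17 and GSTU24. GSTU3 to GSTU6 are consecutive genes of the array on chromosome 2. GSTU3 had 7.90 FPKM in Fsc and 26.3 in Fcs, against 74.4 in Sei-0 and 78.6 in Col-0. GSTU4 (AT2G29460) had 71.9 FPKM in Fsc and 116 in Fcs, against 346 in Sei-0 and 321 in Col-0. These 2 genes were thus at like levels in the parents, and the log2 ratio of FPKM + 1 of the nearer hybrid to the lower parent was -1.47 and -1.46. GSTU5 had 401 FPKM in Fsc and 433 in Fcs, against 888 in Sei-0 and 759 in Col-0. GSTU6 (AT2G29440) had 0.424 FPKM in Fsc and 1.52 in Fcs, against 2.82 in Sei-0 and 8.59 in Col-0.

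The other members below both parents lie outside that array. GSTU24 (AT1G17170), which conjugates the explosive TNT and other xenobiotics, had 2.52 FPKM in Fsc and 3.94 in Fcs, against 10.5 in Sei-0 and 19.1 in Col-0. GSTU17 had 4.71 FPKM in Fsc and 17.5 in Fcs, against 39.0 in Sei-0 and 70.0 in Col-0, which made it the 1 member so called on all 3 days. GSTU16 (AT1G59700) had 17.5 FPKM in Fsc and 27.3 in Fcs, against 50.2 in Sei-0 and 84.6 in Col-0. In all of these 7 genes except GSTU5, the log2 ratio of Fsc over Fcs was -0.49 or lower. By the same rule 13 members were below both parents in Fsc (11% of all genes) and 7 in Fcs (6.07%). Fsc was the lowest of the 4 genotypes for 18 of 33 members at 3 dpi (33% of all genes), against 6 at 1 dpi (17.6%). SAG12, SAG13 and ICS1 were below both parents in both hybrids on the same day, as given above.

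**Figure D3:**
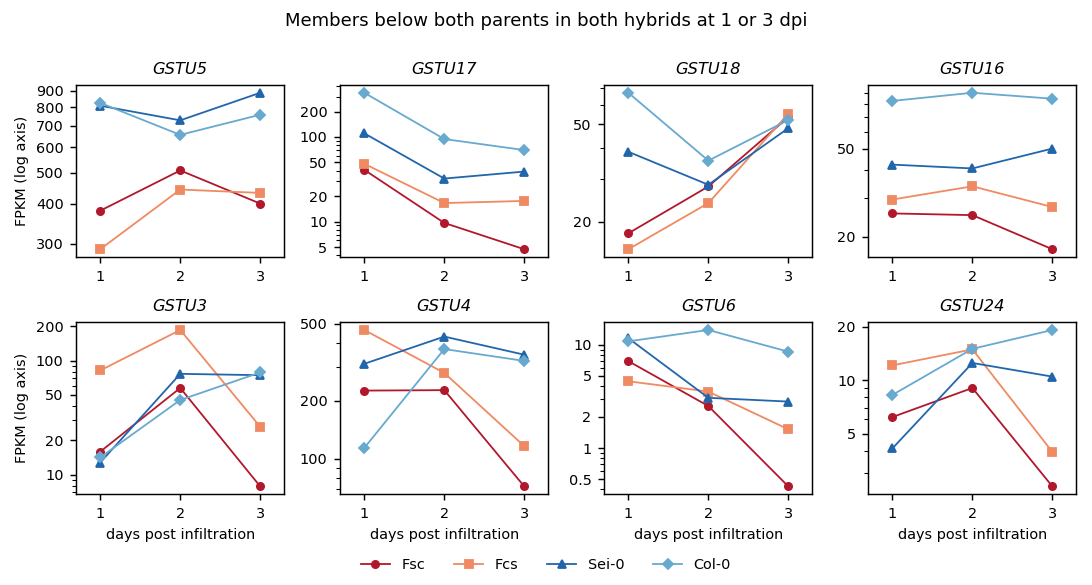
FPKM on log axes against days post infiltration for 8 members that both hybrids held below each parent at 1 or 3 dpi, with 1 pooled value per genotype and day; lines join days whose tables were normalized separately. GSTU17 in the hybrids lies below Sei-0 and Col-0 on all 3 days, while GSTU3 and GSTU4 in Fcs lie above both parents at 1 dpi and below both at 3 dpi.

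GSTU8, GSTU10, GSTU12 and GSTU19, which stood highest in Fcs at 1 dpi, were each below the higher parent in Fcs at 3 dpi. GSTU19 had 448 FPKM in Fsc and 605 in Fcs, against 1307 in Sei-0 and 639 in Col-0 at 3 dpi. GSTU12 had 2.01 FPKM in Fsc and 7.25 in Fcs, against 22.4 in Sei-0 and 6.44 in Col-0. GSTU10 had 41.6 FPKM in Fsc and 65.7 in Fcs, against 93.5 in Sei-0 and 36.1 in Col-0. GSTU8 had 5.59 FPKM in Fsc and 8.47 in Fcs, against 8.89 in Sei-0 and 10.4 in Col-0. No member was called above on 1 day and below on another in Fsc and Fcs alike. The phi genes GSTF2 and GSTF7 had like levels in the 4 genotypes on that day. GSTF2 had 1253 FPKM in Fsc and 1019 in Fcs, against 1023 in Sei-0 and 1091 in Col-0, and GSTF7 had 278 FPKM in Fsc and 279 in Fcs, against 281 in Sei-0 and 311 in Col-0.

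GSTF10 (AT2G30870) was the 1 member called above each parent in Fsc and Fcs at 3 dpi (4.01% of all genes). This is 3.03% of the 33 members, near the share of all genes. The margin to the nearer parent was 0.65 in log2, and at 2-fold GSTF10 was no longer called. This phi gene is known to bind the receptor kinase BAK1, and it lies beside GSTF9 (AT2G30860), the most abundant member in Fsc at 2 and 3 dpi. GSTF10 had 787 FPKM in Fsc and 512 in Fcs, against 327 in Sei-0 and 226 in Col-0. GSTF9 had 2702 FPKM in Fsc and 1956 in Fcs, against 1512 in Sei-0 and 1034 in Col-0, so it was above both parents in Fsc (2 members, 10.1% of all genes), while in Fcs GSTF10 was the 1 member above both (4.45%). For both genes the order at 3 dpi was Fsc, Fcs, Sei-0 and Col-0 from high to low. At 1 dpi Sei-0 was the highest group for both, with 1868 FPKM of GSTF9 in Fsc and 1748 in Fcs, against 2294 in Sei-0 and 1055 in Col-0. GSTF10 then had 708 FPKM in Fsc and 680 in Fcs, against 959 in Sei-0 and 314 in Col-0. On all 3 days both hybrids were higher than Col-0 for GSTF9 and GSTF10.

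**Figure D4:**
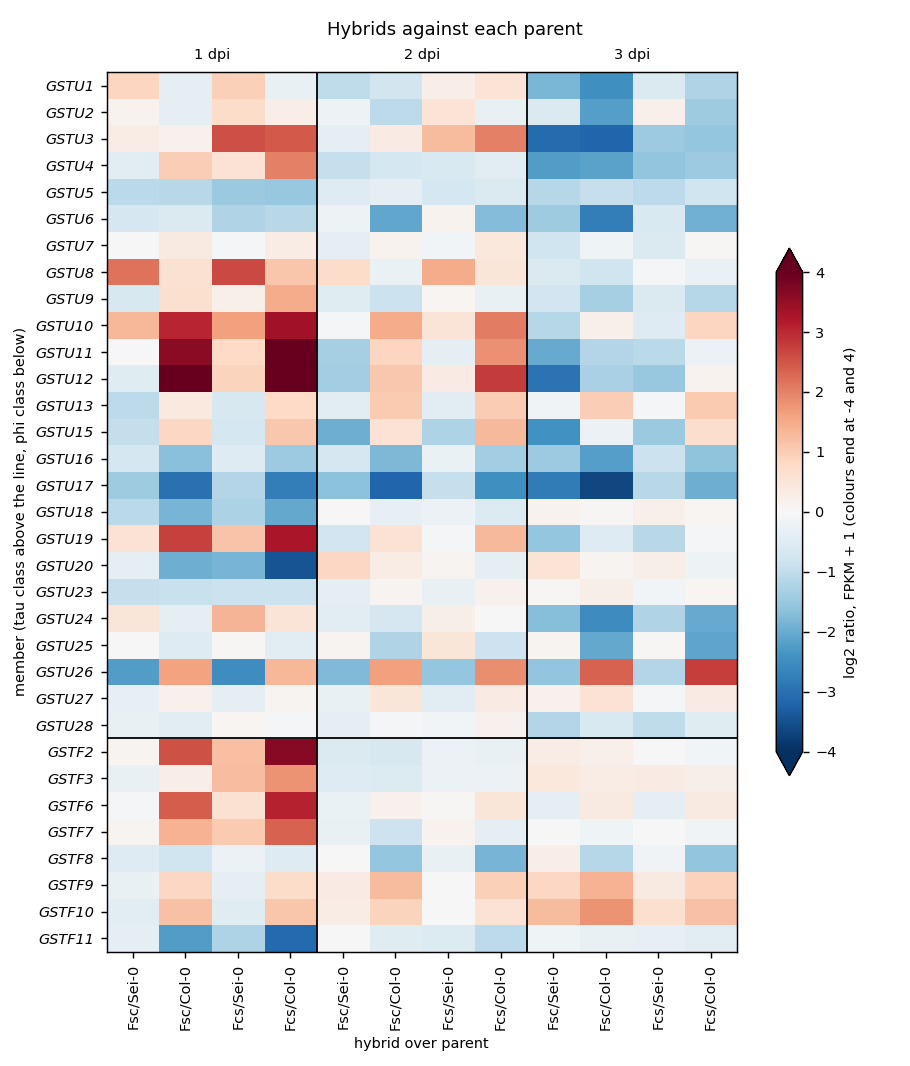
Colours give log2 ratios of FPKM + 1 of each hybrid over each parent for the 33 members that passed the filter, by day, with red for higher and blue for lower in the hybrid. The ratios over Col-0 at 1 dpi are strongly red for GSTU10, GSTU11, GSTU12, GSTU19, GSTF2 and GSTF6, and the tau genes at 3 dpi are mostly blue.

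Each parent taken alone gave the following counts. Over Sei-0, Fsc was higher for 3 members at 1 dpi (11.3% of all genes) and lower for 10 (11.6%), and Fcs was higher for 13 (12.6%) and lower for 10 (12.6%). Over Col-0 on that day, Fsc was higher for 14 members (16.8%) and lower for 8 (19.8%), and Fcs was higher for 17 (20.2%) and lower for 8 (22.4%). The hybrids thus exceeded Col-0 in more members than they undercut it. At 2 dpi, Fsc was higher than Sei-0 for 2 members (13.2%) and lower for 9 (10.1%), and Fcs for 2 (9.89%) and 5 (6.61%). Against Col-0, Fsc was higher for 8 (12.9%) and lower for 12 (13.2%), and Fcs for 10 (12.9%) and 6 (11.9%). At 3 dpi the lower calls prevailed against both parents. Fsc was then higher than Sei-0 for 2 members (17.1%) and lower for 18 (16%), and Fcs for 1 (10%) and 13 (10.1%). Against Col-0, Fsc was higher for 4 (18.7%) and lower for 16 (19.2%), and Fcs for 6 (14.4%) and 12 (16%).

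Against the mid-parent value (the mean of Sei-0 and Col-0), the median member was lowest at 3 dpi in both hybrids. At 1 dpi the median log2 ratio of FPKM + 1 over the 33 members was -0.11 in Fsc and 0.09 in Fcs, and the members spread between -2.41 and 1.94 in Fsc and between -2.86 and 2.52 in Fcs. At 2 dpi the medians were -0.54 in Fsc and -0.11 in Fcs. At 3 dpi both medians were lower than 0 by a like amount, -0.69 in Fsc and -0.68 in Fcs. Over all 19280 genes the medians lay between -0.03 and -0.01 on every day. By class, the calls below the parents in Fsc and Fcs alike concerned tau members. They were 4 of 25 at 1 dpi with GSTU23 among them (5.33% of all genes), 1 on the next day (2.15%) and 7 on the last (5.82%). None of the 8 phi members was so called. GSTF12, a phi gene outside the members, was below both parents in both hybrids at 2 and 3 dpi. With so few phi members no difference between the classes can be read from these counts.

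The parents themselves differed in many members. At 1 dpi, Sei-0 was higher than Col-0 for 14 members (14.4% of all genes) and lower for 8 (17.9%). The counts at 2 dpi were 11 higher (11.6%) and 7 lower (14.7%). Those at 3 dpi were 9 higher (10.6%) and 8 lower (13.5%). The size of the difference was largest for tau genes. GSTU26 (AT1G17190, chr1:5875350-5876545), a tau gene known to respond to herbicides, was the 1 member that differed by at least 4-fold on all 3 days (1.8% of all genes). At 1 dpi it had 5.88 FPKM in Fsc and 4.75 in Fcs, against 31.4 in Sei-0 and 1.27 in Col-0. At 2 dpi it had 4.51 FPKM in Fsc and 5.41 in Fcs, against 17.6 in Sei-0 and 0.783 in Col-0. At 3 dpi it had 7.68 FPKM in Fsc and 10.6 in Fcs, against 25.1 in Sei-0 and 0.685 in Col-0. Both hybrids thus stood between the parents on each day. On a linear scale with Col-0 at 0% and Sei-0 at 100%, GSTU26 was placed at 15.3% in Fsc and at 11.6% in Fcs on the first day, and at 28.7% in Fsc and 40.5% in Fcs on the third.

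On all 3 days, 7 members were higher in Sei-0 than in Col-0 (4.6% of all genes): GSTU10, GSTU11, GSTU12, GSTU13, GSTU15, GSTU19 and GSTU26. For GSTU12 the log2 ratio of FPKM + 1 was 4.44, 2.47 and 1.66 over the 3 days, and for GSTU19 it was 2.14, 1.36 and 1.03. The difference between the parents was largest at 1 dpi for GSTU10, GSTU11, GSTU12 and GSTU19. It was largest at 2 dpi for GSTU13 (1.47) and GSTU15 (2.52), and at 3 dpi for GSTU26 (3.95). Outside these 7 genes, it was 2.45 for GSTF2 and 2.46 for GSTF6 at 1 dpi, and -0.07 and 0.45 at 2 dpi. GSTU13 (AT1G27130), placed in indole glucosinolate metabolism in immunity, had a more even difference, with 66.9, 48.6 and 46.8 FPKM in Sei-0 over the 3 days and 24.2, 16.9 and 20.8 FPKM in Col-0. GSTU11, GSTU13, GSTU15, GSTU25 and GSTF8 are described among the parents after their values were seen. GSTU15 (AT1G59670) had 2.92 FPKM in Sei-0 and 0.125 in Col-0 at 1 dpi, and 11.7 FPKM in Sei-0 and 1.79 in Col-0 at 3 dpi.

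GSTU16 and GSTU17 were the 2 members lower in Sei-0 than in Col-0 on all 3 days (7.09% of all genes). GSTU16 had 42.5, 40.8 and 50.2 FPKM in Sei-0 over the 3 days and 82.7, 90.0 and 84.6 FPKM in Col-0. GSTU25 (AT1G17180), which also conjugates TNT, had 0.187 FPKM in Fsc and 0.13 in Fcs, against 0.0935 in Sei-0 and 3.86 in Col-0 at 3 dpi. Col-0 was the 1 genotype in which it passed 1 FPKM. GSTF8 (AT2G47730), whose product can enter chloroplasts and whose promoter is a known reporter of stress, had 54.4 FPKM in Fsc and 43.5 in Fcs, against 54.3 in Sei-0 and 162 in Col-0 at 2 dpi. Both hybrids were thus near Sei-0. On the scale between the parents, GSTF8 stood at 99.9% of the way to Sei-0 in Fsc and at 110% in Fcs on that day. On the next day it stood at 87.3% in Fsc and at 106% in Fcs. The reads of all genotypes were aligned to the Col-0 reference, and the part of sequence differences of Sei-0 alleles in these levels was not tested.

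**Figure D5:**
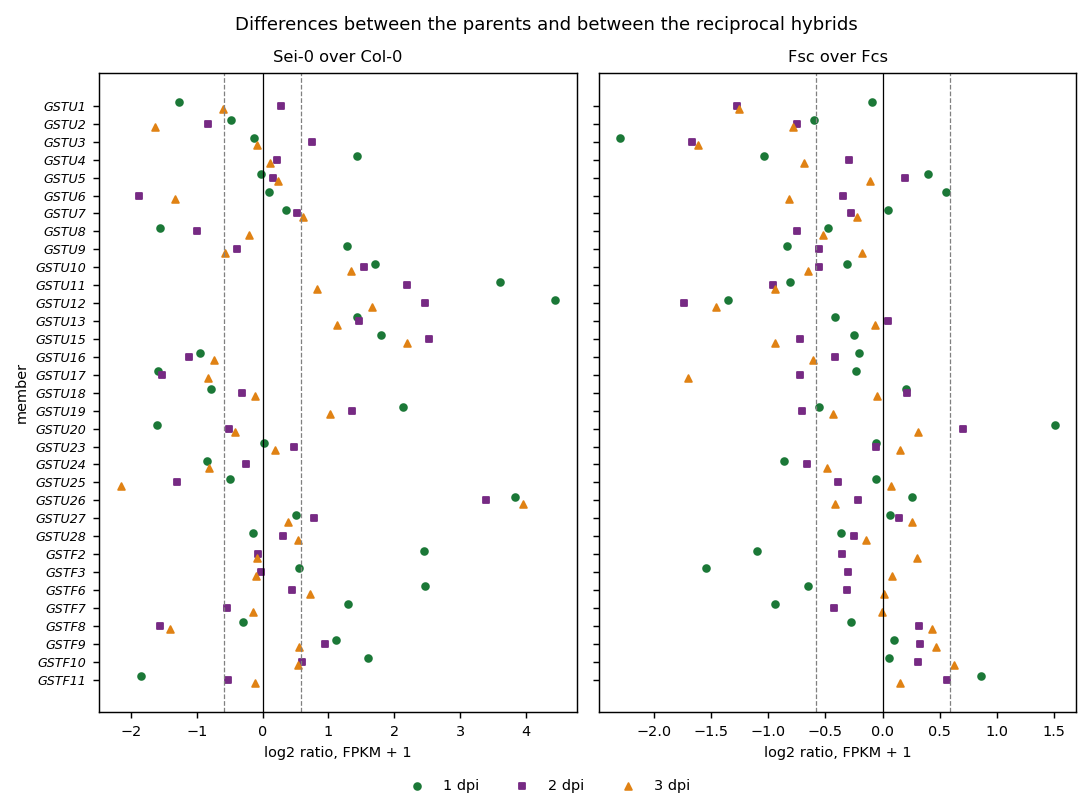
Log2 ratios of FPKM + 1 for Sei-0 over Col-0 (left) and Fsc over Fcs (right), with 1 point per member and day; dashed lines mark 1.5-fold, and the 2 panels differ in scale. GSTU12, GSTU26 and GSTU11 lie farthest to the right between the parents, and more points lie left of 0 than right of it between the hybrids.

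Between the reciprocal hybrids, more members were lower than higher in Fsc. At 1 dpi, Fsc was higher than Fcs for 2 members (4.5% of all genes) and lower for 11 (5.15%). These counts were 1 (2.93%) and 10 (5.93%) at 2 dpi. They were 1 (2.99%) and 11 (5.39%) at 3 dpi. Without a threshold, Fcs was above Fsc for 23, 24 and 22 of 33 members over the 3 days, beside 51.3%, 49% and 48.9% of all genes. GSTU2, GSTU3, GSTU11 and GSTU12 were lower in Fsc on all 3 days (1.38% of all genes). For GSTU3 the log2 ratio of Fsc over Fcs was -2.29, -1.67 and -1.62 over the 3 days. For GSTU12 it was -1.35, -1.74 and -1.45. GSTU2 (AT2G29480), a low-level neighbour of GSTU1 and named after its values were seen, had 0.958 FPKM in Fsc and 2.37 in Fcs at 3 dpi, against 1.9 in Sei-0 and 7.97 in Col-0.

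Other members differed between the hybrids on some days. GSTU1 (AT2G29490) had 5.59 FPKM in Fsc and 6.03 in Fcs, against 2.60 in Sei-0 and 7.72 in Col-0 at 1 dpi, so the hybrids were alike. It had 8.91 FPKM in Fsc and 22.9 in Fcs, against 19.0 in Sei-0 and 15.4 in Col-0 at 2 dpi. At 3 dpi GSTU1 had 5.44 FPKM in Fsc and 14.3 in Fcs, against 22.0 in Sei-0 and 34.0 in Col-0. GSTU17 had a log2 ratio of Fsc over Fcs of -0.23, -0.72 and -1.70 over the 3 days. GSTU4 had 225 FPKM in Fsc and 464 in Fcs, against 310 in Sei-0 and 114 in Col-0 at 1 dpi, a log2 ratio of -1.04 between the hybrids. The members higher in Fsc were GSTU20 at 1 and 2 dpi, with log2 ratios of 1.5 and 0.71, GSTF11 at 1 dpi, with 0.86, and GSTF10 at 3 dpi, with 0.62. Fsc also had less CCA1 and more LUX than Fcs on all 3 days. On the third day CCA1 had 1.1 FPKM in Fsc and 7.16 in Fcs, and LUX had 86.9 FPKM in Fsc and 24.5 in Fcs. Their part in the differences between the hybrids was not tested.

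GSTU7 and GSTU27 spanned less than 2-fold on each day. GSTU7 (AT2G29420), known as an early SA-responsive gene, had between 25.1 FPKM (Col-0 at 1 dpi) and 68.5 FPKM (Sei-0 at 3 dpi) over all groups, and on a single day its groups spanned at most 1.73-fold on the FPKM + 1 scale. GSTU27 (AT3G43800), on its own on chromosome 3, lay between 36.4 and 80.7 FPKM and spanned at most 1.72-fold within a day. GSTU28 (AT1G53680) lay between 0.747 and 2.91 FPKM over all groups. The ranges over all groups pool days that were normalized separately, so their ends cannot be set against each other. GSTU9 (AT5G62480) had 3.55 FPKM in Fsc and 7.11 in Fcs, against 6.08 in Sei-0 and 1.91 in Col-0 at 1 dpi. At 3 dpi GSTU9 had 2.46 FPKM in Fsc and 2.92 in Fcs, against 4.83 in Sei-0 and 7.68 in Col-0, where Col-0 was the highest and no longer the lowest group. These 4 genes also fall outside the naming rule. At the other end, the groups spanned 40.1-fold for GSTU12 at 1 dpi and 21.3-fold for GSTU11, both between Fcs and Col-0.

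Genes around the family were read by the same rule, which called 3.76%, 1.75% and 4.01% of all genes above both parents in both hybrids over the 3 days and 5.33%, 2.15% and 5.82% below. In lists as short as these, a count of 0 or 1 lies near such shares. Of the 17 genes of the other glutathione transferase classes and the remaining phi genes, 13 passed the filter. None of them was called above the parents in Fsc and Fcs alike on any day, and 1, 1 and 2 were called below over the 3 days. DHAR1, a dehydroascorbate reductase of the same fold, had 645 FPKM in Fsc and 370 in Fcs, against 1252 in Sei-0 and 2029 in Col-0 at 1 dpi. GSTF12, the phi protein needed for anthocyanin in the vacuole, had 13.7 FPKM in Fsc and 30.8 in Fcs, against 112 in Sei-0 and 146 in Col-0 at 3 dpi. Of 18 genes of glutathione supply and use, 1, 1 and 0 were called above over the 3 days and 2, 1 and 4 below. GR1, a glutathione reductase, had 31.8 FPKM in Fsc and 58.5 in Fcs, against 127 in Sei-0 and 189 in Col-0 at 3 dpi. ABCC2, a vacuolar transporter of glutathione conjugates, had 10.5 FPKM in Fsc and 15.5 in Fcs, against 38.4 in Sei-0 and 32.9 in Col-0 at 3 dpi.

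Of 22 other detoxification genes, 2, 0 and 0 were called above over the 3 days and 0, 1 and 5 below. The list holds cytochrome P450s, glycosyltransferases, reductases, exporters and transcription regulators. The regulators ANAC032, SCL14, TGA2, TGA5 and TGA6 were called on no day. For this list and those that follow, the shares of all genes were 3.76%, 1.75% and 4.01% above over the 3 days. Below, they were 5.33%, 2.15% and 5.82%. The aldo-keto reductase AKR4C9 had 34.5 FPKM in Fsc and 48.9 in Fcs, against 34.9 in Sei-0 and 62.9 in Col-0 at 1 dpi. At 3 dpi it had 9.45 FPKM in Fsc and 21.5 in Fcs, against 62.1 in Sei-0 and 61.0 in Col-0. Of 7 camalexin genes, CYP71A12 alone was called above, at 1 and 2 dpi. Below were GGP1 at 1 dpi, CYP79B3 at 2 dpi, and CYP79B3 with CYP71A13 at 3 dpi. CYP71A13, which acts just before the step given to GSTF6, had 295 FPKM in Fsc and 466 in Fcs, against 262 in Sei-0 and 41.1 in Col-0 at 1 dpi, so that Fcs was the highest and Col-0 the lowest group, as for GSTF6. It had 6.56 FPKM in Fsc and 10.8 in Fcs, against 38.5 in Sei-0 and 42.7 in Col-0 at 3 dpi. Of 12 aliphatic glucosinolate genes, none was above and 6 were below at 1 dpi, and none was called on later days. CYP83A1, which acts before the step given to GSTF11 and GSTU20, had 116 FPKM in Fsc and 59.6 in Fcs, against 176 in Sei-0 and 261 in Col-0 at 1 dpi. Of 8 indole glucosinolate genes, the regulator MYB51 was above at 1 dpi and the regulator MYB34 was below on all 3 days.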

How the data were processed

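mRNA-seq was made of leaf samples in 12 groups (4 genotypes at 1, 2 and 3 dpi) with 3 libraries each. According to the study's methods, the authors removed adapters and low-quality reads, used TopHat to align the rest to TAIR10 (Bowtie is the aligner in the labels), and obtained FPKM values with Cufflinks, Cuffmerge and Cuffdiff. Tool versions, read length and strand are not given in the sources used here. The deposited FPKM is 1 value per group from Cuffdiff, in 1 table per day with 6 comparisons; each group's value was identical in all comparisons of a table. The other columns of these tables hold the authors' own fold changes, test statistics, p-values, q-values and calls, and were not used. The deposited tables carry no depth per library. Mapped bases per library are listed in the study's supplement and entered no calculation here. With 1 value per group, no test, standard deviation or leave-one-out analysis was made.

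From FPKM, log2 ratios were computed with a pseudocount of 1 for genes with an FPKM of at least 1 in any group, and calls were made at 1.5-fold. Named members are those beyond both parents in both hybrids on any day, those differing by at least 4-fold between parents on all 3 days or by at least 2-fold between hybrids on any day, the 10 highest, and the 2 near-identical pairs. The members and lists were chosen with earlier results of these data known. The lists are the other GST classes, glutathione supply and use, detoxification partners, camalexin, aliphatic and indole glucosinolates, leaf and other-organ markers, and clock and defence genes. Sequences came from RefSeq TAIR10.1, whose identifiers matched 32810 of the 33557 genes, all but 1 overlapping on the same chromosome. The calling rule was tested on simulated data. Alternatives were a pseudocount of 0.1, no filter or a filter of 5 FPKM, 2-fold calls, centring on the median gene, and the higher parent in place of the mid-parent value. Python 3.11.15, NumPy 2.4.6, pandas 2.3.3, Biopython 1.88 and Matplotlib 3.10.9 were used.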

Additional observations from a re-analysis of the deposited data

How the results depend on the processing

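The deposited values are 1 FPKM per group, so precision cannot be stated from them and a small difference may lie within the spread between libraries. The study's supplement lists correlations between the replicates of each group, which were not used here. The lowest of them is within Sei-0 at 3 dpi. The lowest within Fcs at 1 dpi is also below that of most other groups. No paired analysis was possible because the columns carry no replicate numbers, and leaving out single replicates could not be run for the same reason. A count has no sign, so no count could be reversed under the alternatives run. The median of Fcs at 1 dpi, 0.09 in the main setting, was negative against the higher parent. The higher parent is never below the mid-parent value, so its use can only lower a median. The median of Fsc at 1 dpi, -0.11 in the main setting, was slightly positive with a filter of 5 FPKM. Centring on the median of all genes, which lay between -0.02 and 0.02 in log2, moved no count by over 1.5 times. With a pseudocount of 0.1, members higher in Fsc than in Fcs at 2 dpi numbered 2 (5.93% of all genes). With calls at 2-fold, members above both parents in both hybrids numbered 1 at 1 dpi (1.64% of all genes) and 0 at 3 dpi (0.918%). Those below both numbered 0 at 2 dpi (0.737%) and 4 at 3 dpi (2.3%). At 2-fold, Sei-0 was lower than Col-0 for 5 members at 1 dpi (7.89%) and 4 at 3 dpi (6.68%), and higher for 7 at 2 dpi (5.3%). At 2-fold, Fsc was higher than Fcs for 1, 0 and 0 members over the 3 days (0.954%, 0.773% and 0.835%), and lower for 5, 3 and 4 (1.64%, 1.73% and 1.69%). The single members that missed 2-fold were GSTU8 and GSTU23 at 1 dpi, GSTU17 at 2 dpi, and GSTU5, GSTU6, GSTU16 and GSTF10 at 3 dpi, and GSTU23 also missed a filter of 5 FPKM. Of the medians against the mid-parent value, that of Fsc at 1 dpi was 0.0012 with a filter of 5 FPKM, that of Fsc at 2 dpi was -0.35 without a filter, and that of Fcs at 3 dpi was -0.34 without a filter. Against the higher parent, no median over all genes was computed. The medians of the members against it over the 3 days were -0.44, -0.65 and -1.15 in Fsc, and -0.31, -0.31 and -1.04 in Fcs. The cause of these shifts was not tested beyond the construction of each alternative.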
